A study of Mus musculus with 48 samples.

Results

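Ccl2, Ccl3, Ccl12, Fos, Jun and Egr1 were the inducible chemokine and immediate early transcription factor genes examined, 6 of the 478 genes in each of 3 comparison tables. They were taken by symbol, and all 6 had a row in every table. Microglia came from the hippocampus of 48 Balbc/Byj mice aged 17 days, in rearing groups labelled CTL (control), LB and UPS, with 16 animals each, 8 male and 8 female. As background, LB is rearing with limited bedding and UPS adds unpredictable stress to it. About 60000 sorted microglia per animal were lysed, and transcripts were counted with the barcoded probes of a NanoString glial panel in 4 batches that each held 4 animals of every rearing group. Each set of 8 pups drew on 4 to 5 litters and therefore includes siblings, and p-values that count each pup as independent are too small if littermates are alike. The tables hold 1 ratio and 1 p per gene and pair of groups with the sexes pooled. Levels in single animals were not analysed here, so no value per animal can be given and the cell type label could not be checked by the level of its markers. In such bulk lysates, fewer cells of a type and less RNA per cell cannot be told apart.

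As background, chemokines are secreted proteins that draw leukocytes along a gradient through G protein-coupled receptors. Ccl2 and Ccl12 are monocyte attractants that act on the receptor Ccr2, and Ccl3 attracts monocytes, macrophages and lymphocytes. Immediate early genes are transcribed within minutes of a stimulus with no need for new protein. Fos and Jun pair to form the transcription factor AP-1, and Egr1 is a zinc finger factor switched on through serum response elements. Tissue dissociation can itself switch on these genes in microglia, so their levels after cell isolation can hold a response to the procedure as well as the state in the brain.

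The 250 bases upstream of the annotated start in RefSeq's promoter table (GRCm38.p6) are shown for 4 of the 6 members. They are given as the bases closest to the start, and elements that control these genes may also lie outside them. No window is shown for Ccl2 or Egr1. Capitals mark matches, on either strand, to TATAA, to the cyclic AMP response half-site TGACG, to the AP-1 and CRE variant TGACATCA, to the AP-1 element TGANTCA, to the CArG box or to the kappaB motif.
Ccl3: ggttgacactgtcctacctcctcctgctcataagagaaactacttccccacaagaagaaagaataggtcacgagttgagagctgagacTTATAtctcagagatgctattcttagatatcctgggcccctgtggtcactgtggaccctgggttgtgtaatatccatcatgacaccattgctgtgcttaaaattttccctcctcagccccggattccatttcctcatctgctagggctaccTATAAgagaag
Ccl12: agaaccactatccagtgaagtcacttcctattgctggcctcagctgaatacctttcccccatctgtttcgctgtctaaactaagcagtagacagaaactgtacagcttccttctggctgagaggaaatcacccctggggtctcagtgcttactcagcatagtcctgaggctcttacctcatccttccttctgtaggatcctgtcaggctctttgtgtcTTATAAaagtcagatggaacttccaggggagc
Fos: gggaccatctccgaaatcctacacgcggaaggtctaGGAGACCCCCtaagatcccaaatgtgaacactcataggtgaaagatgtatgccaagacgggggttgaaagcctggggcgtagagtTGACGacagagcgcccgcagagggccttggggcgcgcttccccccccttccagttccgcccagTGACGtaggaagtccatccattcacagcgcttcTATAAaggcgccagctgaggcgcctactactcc
Jun: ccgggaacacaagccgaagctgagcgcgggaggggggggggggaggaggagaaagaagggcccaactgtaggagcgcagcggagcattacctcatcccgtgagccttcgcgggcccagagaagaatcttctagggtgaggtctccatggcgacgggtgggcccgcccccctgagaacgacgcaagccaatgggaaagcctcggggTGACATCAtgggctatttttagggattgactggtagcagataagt
These windows lie at chr11:83649379-83649628 on the minus strand (Ccl3), chr11:82101595-82101844 on the plus strand (Ccl12), chr12:85473640-85473889 on the plus strand (Fos) and chr4:95052223-95052472 on the minus strand (Jun). A TATAA match on the gene's strand ended 27 bases before the start of Ccl12, 29 before that of Fos and 7 before that of Ccl3. Ccl3 and Ccl12 each had a further TATAA match on the other strand, which in Ccl12 overlapped the first. Fos held TGACG at 66 to 62 and at 129 to 125 bases before the start and a kappaB match at 214 to 205, and Jun held TGACATCA at 45 to 38. Over 32817 mouse promoter windows of the same length, 22.8% held TATAA, 17.7% TGACG, 2.93% TGACATCA, 6.75% TGANTCA, 1.47% a CArG box and 7.25% a kappaB match. None of the 4 windows held TGANTCA or a CArG box. Bases further upstream were not searched and Ccl2 and Egr1 have no window, so a gene's lack of either element is not shown. A match is a description of letters and was not tested as a binding site.

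None of the 6 genes differed between any pair of rearing groups at an adjusted p below 0.05 in the authors' deposited tables, which come from the advanced analysis of the nSolver software. Among all genes the share called was 0.0% between CTL and LB, 4.81% between CTL and UPS and 6.28% between LB and UPS, so a count of 0 of 6 is near the background. At an unadjusted p below 0.05, 1 of the 6 was reached between CTL and LB (Ccl12), against 11.7% of all genes. No member reached it between CTL and UPS (16.3% of all genes) or between LB and UPS (18.8%). The headers do not state which group is the numerator, so signs are given as deposited. Reading each ratio as the second group over the first, positive values mean more transcript in the second. Under the opposite reading all signs turn at once.

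**Figure D1:**
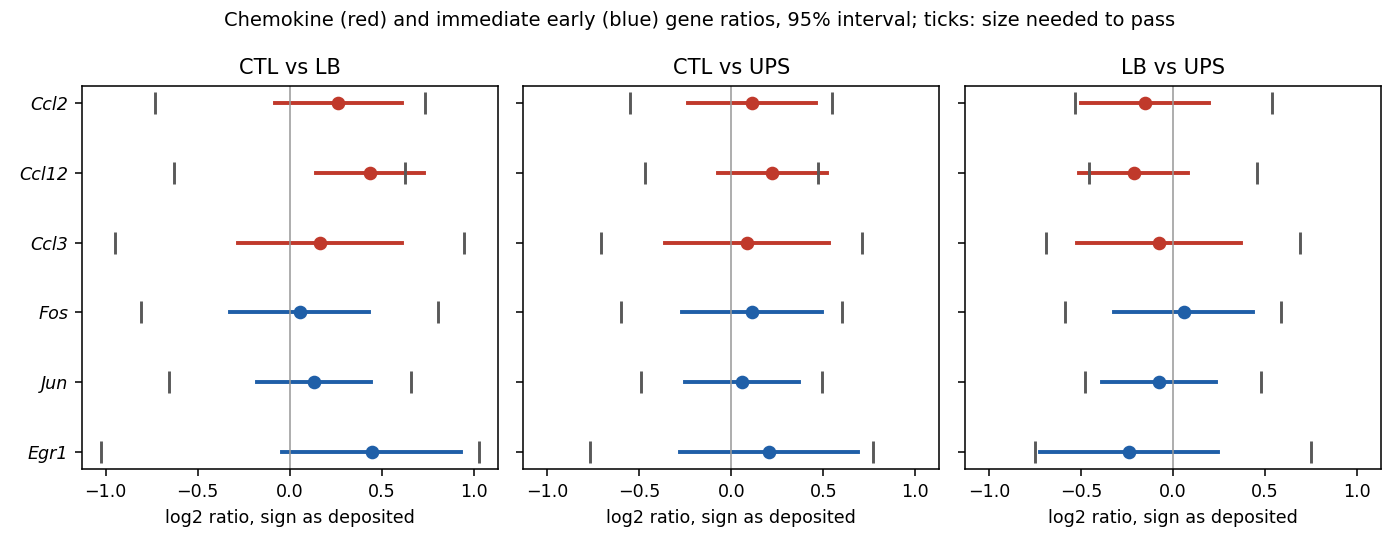
Log2 ratio of each chemokine (red) and immediate early gene (blue) in the 3 comparisons, with the recovered 95% interval as a bar and grey ticks at the size a ratio would have needed to pass. The interval of Ccl12 between CTL and LB is the only one of the 18 that leaves out 0, and no point reaches a tick.

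Ccl12 had the smallest p of the members in all 3 comparisons. Its log2 ratio in the authors' deposited tables was 0.437 (1.35-fold) between CTL and LB, 0.222 (1.17-fold) between CTL and UPS and -0.215 (0.861-fold) between LB and UPS. The deposited p-values were 0.00475, 0.138 and 0.149, and their Benjamini-Hochberg adjusted values over the 478 genes of the nSolver tables were 0.194, 0.446 and 0.457. With a recovered standard error of 0.147 its 95% interval between CTL and LB was 1.10 to 1.66-fold and lay above 1. Those of the other pairs, 0.950 to 1.43-fold and 0.702 to 1.06-fold, included 1. In the authors' deposited table of CTL and LB it ranked 11th of 478 genes by p.

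Ccl2 lies on the same chromosome with 2 protein-coding genes between it and Ccl12. Its log2 ratios in the authors' deposited tables were 0.265 between CTL and LB (p = 0.13), 0.113 between CTL and UPS (p = 0.514) and -0.152 between LB and UPS (p = 0.38). Each ratio of Ccl2 had the sign of the Ccl12 ratio and a smaller size. The recovered 95% intervals were 0.945 to 1.53-fold, 0.851 to 1.38-fold and 0.708 to 1.14-fold, and a change above 1.53-fold in either direction lay outside all 3 intervals.

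Ccl3, which macrophages make in quantity after stimulation, had the smallest ratios of the 3 member chemokines. In the authors' deposited tables they were 0.164 between CTL and LB (p = 0.463), 0.0861 between CTL and UPS (p = 0.699) and -0.0777 between LB and UPS (p = 0.727). Intervals recovered for Ccl3 were wide, with bounds of 0.822 and 1.53-fold, 0.779 and 1.45-fold, and 0.695 and 1.29-fold.

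Egr1 had the largest ratio of the members and did not pass. The authors' deposited tables gave log2 ratios of 0.445 (1.36-fold, p = 0.0709) between CTL and LB, 0.203 (1.15-fold, p = 0.402) between CTL and UPS and -0.241 (0.846-fold, p = 0.32) between LB and UPS. In the authors' deposited table of CTL and LB, 8 of the 478 genes had a log2 ratio of larger size, yet Egr1 ranked 74th by p. The recovered interval of Egr1 was 0.973 to 1.90-fold for that pair, and 0.823 to 1.61-fold and 0.605 to 1.18-fold for the others.

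Fos and Jun, the partners in AP-1, had small ratios. For Fos the authors' deposited tables gave 0.0534 between CTL and LB (p = 0.778), 0.110 between CTL and UPS (p = 0.562) and 0.0568 between LB and UPS (p = 0.765). For Jun the authors' deposited tables gave 0.133 (p = 0.392), 0.0558 (p = 0.718) and -0.0769 (p = 0.619) in the same order. Recovered 95% intervals of Fos lay between 0.797-fold and 1.40-fold over the 3 pairs, and those of Jun between 0.765-fold and 1.36-fold. A change of 1.5-fold in either of these genes therefore lay outside the interval of every pair.

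All 6 ratios were positive between CTL and LB, where 52.7% of all genes were, and all 6 were positive between CTL and UPS, where 48.7% were. Between LB and UPS 1 of the 6 was positive, beside 43.9% of all genes. These comparisons share the 16 CTL animals, and LB against UPS is fixed by the other pair of ratios, so the tables are not separate evidence. The median log2 ratio of the 6 was 0.215 between CTL and LB, 0.112 between CTL and UPS and -0.115 between LB and UPS, beside 0.0035, -0.0024 and -0.010 over all genes. The median size of the ratio was 0.215, 0.112 and 0.115 for the members and 0.043, 0.051 and 0.054 for all genes. In units of each gene's own standard error the medians were 1.21, 0.621 and 0.693 for the members and 0.859, 0.980 and 1.04 for all genes. Against their own error the members' ratios were thus above the median of all genes between CTL and LB and below it in both comparisons with UPS, while on the log2 scale they were above it in all 3.

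**Figure D2:**
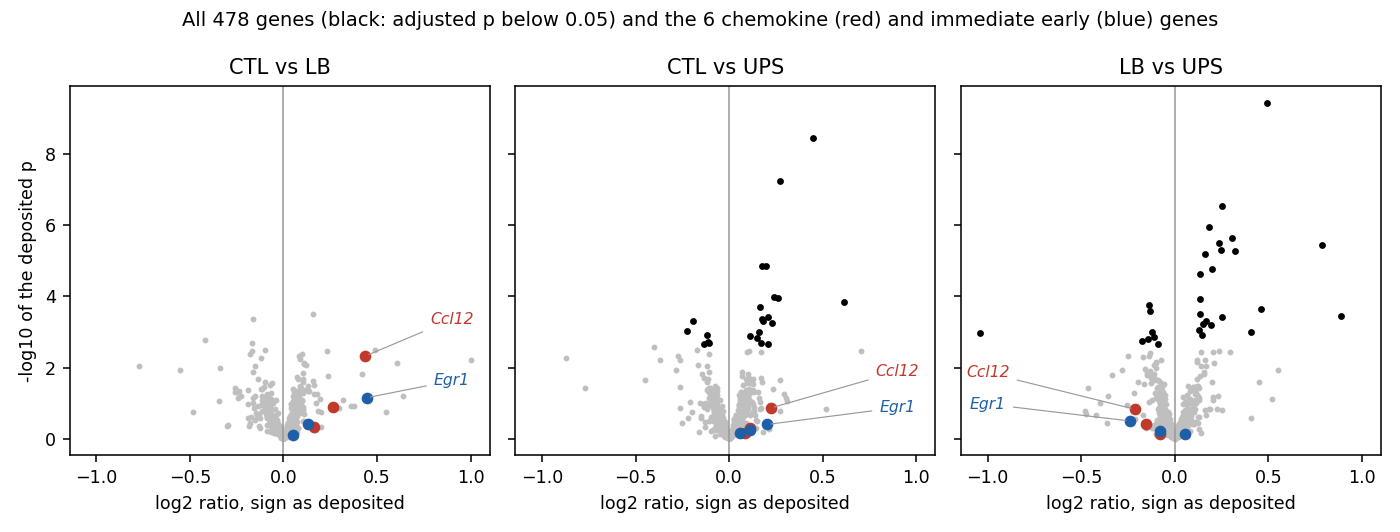
Log2 ratio (horizontal) against -log10 of the deposited p (vertical) for all 478 genes in each comparison. Black points passed at an adjusted p below 0.05 (0, 23 and 30 genes) and grey points did not. The chemokines (red) and immediate early genes (blue) lie low for their distance from 0, except Ccl12 between CTL and LB. There Ccl12 ranked 11th by p, and 9 genes had a ratio of larger size.

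Residual spread was wider for the 6 genes than for most of the 478 genes. From the standard error, which was shared by the 3 pairs, a residual SD on the log2 scale was computed for animals of 1 group and batch. It was 0.679 for Egr1 (a 1.60-fold spread), 0.626 for Ccl3, 0.533 for Fos, 0.485 for Ccl2, 0.435 for Jun and 0.414 for Ccl12 (1.33-fold). The median over the 478 genes was 0.142, or 1.10-fold. Ordered from the widest spread, the members ranked 10th (Egr1), 14th (Ccl3), 20th (Fos), 26th (Ccl2), 32nd (Jun) and 36th (Ccl12) of 478. Their standard errors were 2.92 to 4.77 times the median of all genes. The 36 widest genes, 7.53% of the table, hence held all 6 members and 30 others, among them Il1b, Tnf and the interferon-induced Mx1 and Ifit3. Differences between animals, between cell preparations and in counting all enter this SD and cannot be told apart in these tables.

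**Figure D3:**
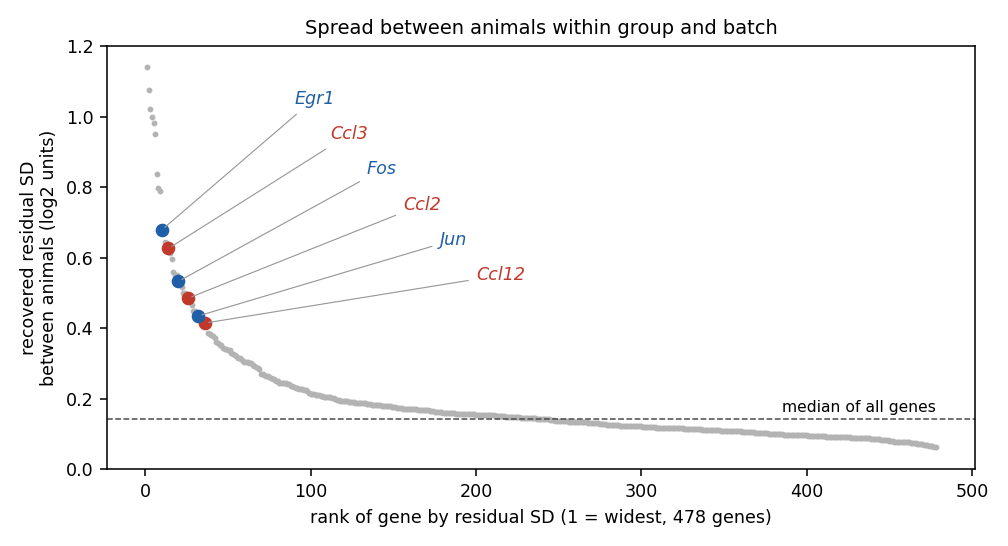
Recovered residual SD in log2 units (vertical) of all 478 genes ranked from widest to narrowest (horizontal), with the chemokines in red and the immediate early genes in blue. All 6 lie among the first 36 ranks, between 0.414 and 0.679, above the dashed median of 0.142.

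Beside these 30 other wide genes the members did not have larger ratios. The 30 had a median size of 0.296 between CTL and LB, 0.209 between CTL and UPS and 0.252 between LB and UPS on the log2 scale, against 0.215, 0.112 and 0.115 for the members. Some of the 30, such as Mx1, had a wider spread than any member. In standard error units the medians were 1.27, 0.901 and 1.21 for the 30 and 1.21, 0.621 and 0.693 for the members. Of the 30 ratios, 14, 18 and 12 were positive. Of them 0, 1 and 3 passed by the p-values of the authors' deposited tables.

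The spread sets what these comparisons could have called. With all other genes as deposited, a member needed an unadjusted p of 0.000105 or less to pass between CTL and LB, 0.00262 between CTL and UPS and 0.00324 between LB and UPS. At its own standard error Egr1 would have needed a ratio of 2.04-fold, 1.70-fold and 1.68-fold in that order. Ccl12, the least variable member, would have needed 1.54-fold, 1.38-fold and 1.37-fold. Ccl3 would have needed 1.93-fold between CTL and LB, Fos 1.75-fold, Ccl2 1.66-fold and Jun 1.58-fold. These sizes apply to the observed ratio. A true ratio inside a gene's 95% interval could therefore have been missed, whether below or above them. For Ccl12 between CTL and LB the interval reached 1.66-fold, past the 1.54-fold needed. Sizes outside the interval are bounded by it only if each pup counts as independent.

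The order of the 3 groups can be read without knowing the sign. For Ccl12, Ccl2, Ccl3, Jun and Egr1 the UPS group lay between CTL and LB, and for Fos the LB group lay between CTL and UPS. The distance between the outer groups on the log2 scale was 0.445 for Egr1, 0.437 for Ccl12, 0.265 for Ccl2, 0.164 for Ccl3, 0.133 for Jun and 0.110 for Fos. The middle group stood at 42.0% to 52.5% of that distance from CTL in each gene. No neighbouring groups differed beyond their error in any of the 6 genes. One F test over the 3 groups, recovered from the ratios and chosen after the data had been seen, put 1 of the 6 members under an unadjusted p of 0.05, beside 19.7% of all genes. This was Ccl12 at p = 0.0177 (adjusted p = 0.130, Benjamini-Hochberg over 478 genes). It gave p = 0.191 for Egr1 and 0.311 for Ccl2, and 0.688 to 0.843 for Jun, Ccl3 and Fos, while 33 of all genes (6.9%) passed after adjustment.

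The gene whose pair of ratios against CTL was nearest to that of Ccl12 was Egr1, and the reverse also held, at a Euclidean distance of 0.021 log2 units. H2-D1, a class I histocompatibility gene, was second for both, at 0.051 from Ccl12 and 0.052 from Egr1, and the cyclin Ccnb1 came next, at 0.080 and 0.086. Nearest to Ccl2 was Cd74, the class II invariant chain (0.043), followed by the exchanger Slc24a3 (0.052) and the heme-degrading enzyme Hmox1 (0.058). Ccl3 lay closest to the peptide transporter Tap1 (0.0064), Fos to Kctd12 (0.015) and Jun to the mitochondrial chaperone Hspa9 (0.028). This likeness rests on 2 ratios over 3 rearing groups, and all these distances are smaller than the members' standard errors.

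Few receptors and further ligands of the chemokine family had a row in the tables. A gene counted as measured only if it had a row, here and in the lists below. Genes without a row may be absent from the panel or below the authors' threshold of 20 counts, which cannot be told apart. Of 37 chemokine and receptor genes listed, 5 were measured, among them the 3 members and the receptor Cx3cr1, and none passed in any pair. Cx3cr1, the fractalkine receptor of microglia, was at -0.0087, -0.0093 and -0.00063 in the authors' deposited tables, with intervals between 0.956-fold and 1.04-fold. Ccl6 and Cxcl15, which the list did not hold, were found in the tables afterwards and are given because they are the other chemokines measured. Ccl6, the direct neighbour of Ccl3 among protein-coding genes, had ratios of -0.126, 0.0764 and 0.203 (p = 0.0801 for the last) in the authors' deposited tables. For Cxcl15 the authors' deposited tables gave -0.191, -0.262 and -0.0717. Neither passed, and between CTL and LB both had the opposite sign to the 3 member chemokines.

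Of 38 immediate early and dissociation genes listed, 4 were measured, and none passed in any pair. Besides Fos, Jun and Egr1 this was Rhob, an early response GTPase that regulates endosome traffic. In the authors' deposited tables Rhob had log2 ratios of 0.0771 (p = 0.492), 0.236 (p = 0.0397) and 0.159 (p = 0.16), with adjusted p-values of 0.803, 0.297 and 0.466. The median of the 4 was 0.105 between CTL and LB, 0.157 between CTL and UPS and -0.010 between LB and UPS.

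Upstream of the members, 6 of 29 NF-kB pathway genes were measured. None passed between CTL and LB, while 1 positive and 1 negative ratio passed between CTL and UPS and again 1 of each between LB and UPS. Tlr4, the lipopolysaccharide receptor, was positive in both in the authors' deposited tables (0.165, adjusted p = 0.0120, and 0.150, adjusted p = 0.0144), and Tlr2, the lipoprotein receptor, was at -0.194 (adjusted p = 0.0199) between CTL and UPS. Il1b, the cytokine interleukin 1 beta, was at -1.04 between LB and UPS in the authors' deposited table (adjusted p = 0.0207). Tnf, chosen here after its values were seen, had ratios of 0.420 (p = 0.0148), 0.305 (p = 0.0718) and -0.114 (p = 0.49) in the authors' deposited tables and did not pass. Il1a, also chosen after its values were seen, had 0.164 (p = 0.0547), -0.0838 (p = 0.32) and -0.248 (p = 0.00475, adjusted p = 0.0614) in the authors' deposited tables and did not pass.

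Of 35 listed MAP kinase pathway genes and their transcription factor targets, 10 were measured, and none passed in any pair. Their median log2 ratio in the authors' deposited tables was 0.023, -0.0087 and -0.015 for CTL and LB, CTL and UPS, and LB and UPS. Map2k1, a kinase that activates ERK, had -0.076 (p = 0.072), -0.0806 (p = 0.0569) and -0.0046 (p = 0.912), and the Jun kinase Mapk8 had 0.0391, -0.0291 and -0.0682 (p = 0.0856 for the last) in the authors' deposited tables.

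**Figure D4:**
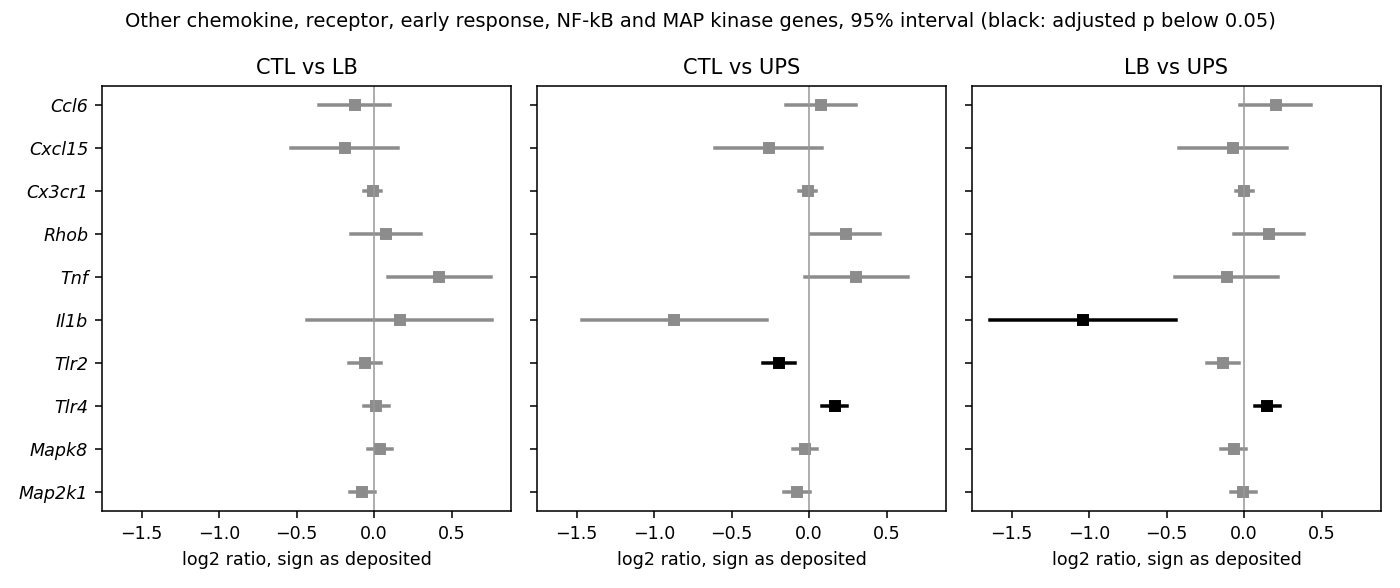
Log2 ratios with recovered 95% intervals of chemokines, a receptor, an early response gene, NF-kB pathway genes and kinases beside the members, in the 3 comparisons. Black marks those past an adjusted p of 0.05, which are Tlr2 and Tlr4 between CTL and UPS and Il1b and Tlr4 between LB and UPS.

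Few markers of other cells had a row in the tables, with 11 measured genes over 8 cell classes. Whether the others were absent from the panel or had too few counts is not known here. Of 8 monocyte markers listed only Lyz2, which microglia also express, was measured, at -0.112, -0.116 and -0.0033 in the authors' deposited tables, and Ccr2 was not analysed here. Of 6 neutrophil markers only Csf3r was measured, at -0.168 (p = 0.00204, adjusted p = 0.194), -0.0622 and 0.106 in the authors' deposited tables. Neither Lyz2 nor Csf3r passed in any pair, and 1 gene per class does not measure the share of those cells. Of 7 border macrophage markers only Stab1 was measured, at 0.0097 between CTL and LB, and it passed between CTL and UPS (0.205) and between LB and UPS (0.195) in the authors' deposited tables. Of 7 astrocyte markers 2 were measured, and Slc1a3, a glutamate transporter, passed between CTL and UPS (0.21, adjusted p = 0.0461) and between LB and UPS (0.25, adjusted p = 0.00996) in the authors' deposited tables, with -0.0394 between CTL and LB. Of 9 lymphocyte markers only Klrd1, a natural killer cell receptor, was measured, at -0.296, -0.77 (p = 0.0388, adjusted p = 0.294) and -0.473 in the authors' deposited tables. The 5 measured markers of neurons, the oligodendrocyte lineage and vessels did not pass in any pair. All 13 microglial markers were measured, with median log2 ratios of -0.0069, -0.0024 and -0.012, and 1 passed, Tmem119 between LB and UPS (0.462 in the authors' deposited table). The part of other cells and of the isolation procedure in the members' ratios was not tested.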

How the data were processed

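Transcripts were counted on the NanoString nCounter glial panel in 48 libraries, and 3 tables of the authors' own comparisons were used. Per the file headers the columns the authors deposited are a log2 ratio, the same as a linear fold, the p-value, and its adjustment by Benjamini-Hochberg. Per the series text the authors tested pairs of rearing groups in nSolver with batch as a covariate, after a multivariate analysis of genes above 20 counts. How counts were normalized, and by which nSolver version, is not given in the sources used here. The depth per library is unknown, and no new model was fitted.

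Within each table of 478 genes the p-values were again adjusted (Benjamini-Hochberg), with a threshold of 0.05. One standard error per gene was recovered by inverting the two-sided p through a t distribution. Residual degrees of freedom of 42 (3 groups with batch) matched the tables best, with a median mismatch of 0.147%, against 0.160% to 0.174% for the other models of 3 groups and 0.432% and 0.589% for models of 2 groups. The residual SD assumes equal spread in 16 animals per group. The procedure was tested on simulated data. Python 3.11.15, scipy 1.17.1 and pandas 2.3.3 were used. LB against UPS equalled the difference of the other ratios to within 0.003.

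Named were all members, called genes of each list, up to 3 list genes of smallest p, and the 3 genes nearest each member over both ratios against CTL. The members and lists were chosen with earlier results of these data known. A few genes falling under this rule are not reported here.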

Additional observations from a re-analysis of the deposited data

How the results depend on the processing

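None of the 6 members passed in any pair under 5 alternatives (p-values of the 3 tables adjusted together, the authors' deposited adjusted p, ratios centred on the median of all genes, standard errors of a fit of 2 groups, Bonferroni adjustment). Centring alone could turn a sign and turned none of the 18 member ratios, and Bonferroni adjustment or a fit of 2 groups could not add a call. The authors' deposited adjusted p repeats the same adjustment of the same p-values and is no separate check. The smallest adjusted p of a member was 0.0871, for Ccl12 between CTL and LB with the 3 tables adjusted together, and centring shifted a table by at most 0.010 log2 units. Counts over all genes moved more. With the 3 tables adjusted together 3 genes in place of 0 passed between CTL and LB, and with Bonferroni adjustment 5 in place of 23 passed between CTL and UPS and 11 in place of 30 between LB and UPS. No paired analysis was possible because the tables hold no values per animal, and for the same reason no animal could be left out and no filter on low counts applied. The precision of the members is limited by their residual SD.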
